A study of Mus musculus with 4 samples.

Results

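Solute carriers are the membrane proteins that move amino acids, sugars, metals, ions, vitamins and metabolites across the plasma membrane and across the membranes of organelles. Most of their genes carry the symbol Slc followed by a family number, the letter a and a member number. The genes described here are those whose name follows that pattern and that are listed in all 4 deposited tables of mouse alveolar epithelial cells, with 1 matching gene left out by the rule. That gave 172 genes of the 11242 listed in all 4 tables. The pattern was matched by 210, 196 and 179 genes in the AT1 tables of postnatal day (P) 3, P15 and P60, by 203 in the AT2 table and by 224 in any. Each gene was placed in 1 of 15 substrate groups. The larger groups were the 37 members of the Slc25 family, most of them mitochondrial carriers, 30 carriers of amino acids and peptides, 24 of metals and 15 of vitamins, choline and heme. The name pattern also caught 4 genes whose products are not carriers, Slc4a1ap, Slc7a6os, Slc9a3r1 and Slc9a3r2, which form a group of their own and stay in the counts over all 172 genes.

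All cells came from tamoxifen-treated mice with the alleles Sftpc-CreER, Rosa26-Zsgreen and Hopx-RFP on a mixed FVB/C57BL6 strain. After tamoxifen, Sftpc-CreER turns on the green reporter in cells that use the surfactant gene Sftpc, and Hopx-RFP marks cells that use the AT1 gene Hopx. Alveolar type 1 (AT1) cells were sorted as RFP+Pdpn+GFP-CD45- at P3, P15 and P60, and alveolar type 2 (AT2) cells as GFP+CD45- at P60, each in 1 library of the 10x 3' single-cell protocol. The AT1 digest held elastase and collagenase besides the neutral protease and DNase used for AT2, so cell type and digestion cannot be told apart at P60, nor can age and library. With 1 library per group there is no replicate, no test was possible, and no p-value is given. The number of animals behind a library is not stated in the labels.

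AT1 cells are the thin, flat cells through which gas crosses into the blood, and AT2 cells are the cuboidal cells that make surfactant and can give rise to AT1 cells. Import of amino acids, choline and phosphate feeds protein and phospholipid synthesis, and zinc and copper carriers supply metal-dependent enzymes. Ion carriers move salt ions across cell membranes. Most Slc25 carriers sit in the inner mitochondrial membrane and exchange nucleotides, phosphate and metabolites between the matrix and the cytosol.

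Levels are unique molecular identifiers (UMIs) summed over the AT1-like or AT2-like cells of a library, as counts per 1000000 UMIs of those cells (CPM). Where 4 levels are given in a row, they are AT1 at P3, P15 and P60 and then AT2 at P60. The classes held 2853, 2658, 1200 and 2060 cells, or 90.6%, 90.4%, 89.8% and 98.4% of the barcodes, with 6545536 to 22717232 UMIs. The sorted cells carried their markers. Ager, a receptor gene of AT1 cells, stood at 16813, 35011, 22155 and 1593 CPM, and Sftpc at 309, 125, 218 and 135598 CPM. The 18 AT2 markers summed to 562 to 773 CPM in the AT1 classes and 256952 CPM in AT2, and the 17 AT1 markers to 37803 to 63269 CPM and 3198 CPM. The AT1 genes Hopx and Pdpn were at 26.1 and 5.46 CPM in AT2, against 5906 and 1306 CPM in AT1 at P60, and Spock2 is listed at 0 in AT2. The 10 club cell markers summed to 335 to 1255 CPM in AT1 and 6629 CPM in AT2, the 12 endothelial markers to 168 to 355 CPM and 98.6 CPM with 7 listed at 0 in AT2, and the part of such RNA in the results was not tested. Pairs of libraries shared 3 to 15 cell barcodes. The AT2 table lists 1068 genes at 0 in every AT2 cell, 15 of them solute carriers. Whether these zeros were measured or filled in is not stated in the labels, so such genes are given as listed at 0, with no fold.

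The 172 genes made up a larger part of the AT1 than of the AT2 transcriptome. They took 0.626%, 0.817% and 0.744% of UMIs in AT1 at P3, P15 and P60 and 0.433% in AT2. Over all genes with UMIs the median log2 ratio of AT2 over AT1 at P60 was −0.76, so a lower level in AT2 was not particular to them. At least 100 CPM was reached by 12, 17, 17 and 7 of them, and at least 10 CPM by 94, 102, 105 and 76. The 5 highest genes of a library held 28.8% to 37.4% of the UMIs of all solute carriers. In AT1, Slc39a8, a carrier of zinc, manganese and iron, and Slc25a4, an exchanger of ADP and ATP, were among the 3 highest at every age. Slc44a2, a choline transporter-like protein, ranked 6, 4 and 1 at P3, P15 and P60. Slc39a8 ranked 102 among all 12851 genes listed at P15. In AT2 the leading genes of the 172 were Slc25a5, another ADP/ATP exchanger, Slc25a3, the mitochondrial phosphate carrier, and Slc12a2, the sodium-potassium-chloride cotransporter. The matching gene left out by the rule is not in these shares and ranks. It was among the leading genes of the AT2 clusters found in the AT1 libraries.

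A gene was counted in a comparison when its levels differed at least 2-fold and the higher one reached at least 10 CPM and 30 UMIs. In AT2 against AT1 at P60, 112 solute carriers passed the minimum, of which 12 (10.7%) were higher and 54 (48.2%) lower in AT2. Over all 8247 genes that passed, 10.1% were higher and 37.4% lower. The 4 genes that are no carriers all passed, and 2 of them are among the 54. The median log2 ratio was −0.96 over the genes that passed and −0.84 over all solute carriers with UMIs, beside −0.72 and −0.76 for all genes. Scaling by a trimmed mean of log ratios shifts this comparison by 0.64 on the log2 scale. It brings the median of all genes to −0.07 and that of the solute carriers to −0.31, and gives 23 higher and 31 lower, beside 17.1% and 17.7% of all genes. All 31 are among the 54. AT2 markers took 256952 CPM of AT2, and Malat1, a nuclear RNA, took 159308 CPM of AT1 at P60 and 42048 CPM of AT2.

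**Figure D1:**
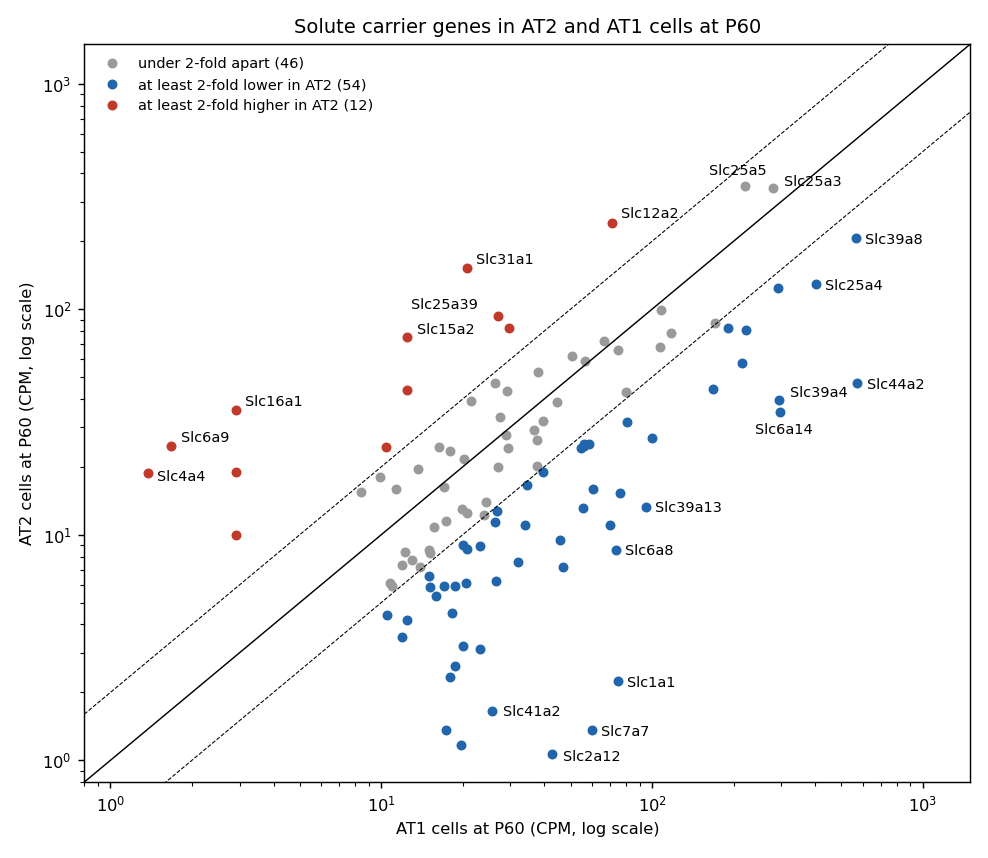
Level of each of the 112 solute carrier genes that passed the minimum, in AT1 cells (x axis) and AT2 cells (y axis) at P60, in CPM on log axes, with lines at equal levels and at 2-fold. The 54 genes at least 2-fold lower in AT2 include Slc44a2 (574 against 47 CPM), and the 12 higher ones include Slc31a1 (20.8 against 153 CPM).

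Fewer solute carriers differed between AT1 ages than between cell types, and the same held for all genes. From P3 to P15, 13 of 105 solute carriers were higher (12.4%, against 6.92% of all 7964 genes) and 5 lower (4.76%, against 6.09%). With ribosomal protein, mitochondrial and haemoglobin genes and Malat1 left out of the total, that split became 10 (8.7%) and 8 (6.96%). All genes then gave 4.58% higher and 8.72% lower. From P15 to P60, 10 of 110 solute carriers were higher (9.09%, against 5.86% of all 8156 genes) and 7 lower (6.36%, against 3.54%). With that other total the counts were 12 (10.2%) and 5 (4.24%), beside 8.98% and 2.93% of all genes. From P3 to P60, 24 of 110 solute carriers were higher (21.8%, against 13.1% of all 8323 genes) and 8 lower (7.27%, against 7.69%). The trimmed mean gave 17 (15.5%) and 9 (8.18%), beside 9.08% and 10.2% of all genes. The median log2 ratio from P3 to P60 was 0.41 over the solute carriers and 0.19 over all genes. These comparisons share libraries, and AT1 at P60 also enters the comparison with AT2.

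**Figure D2:**
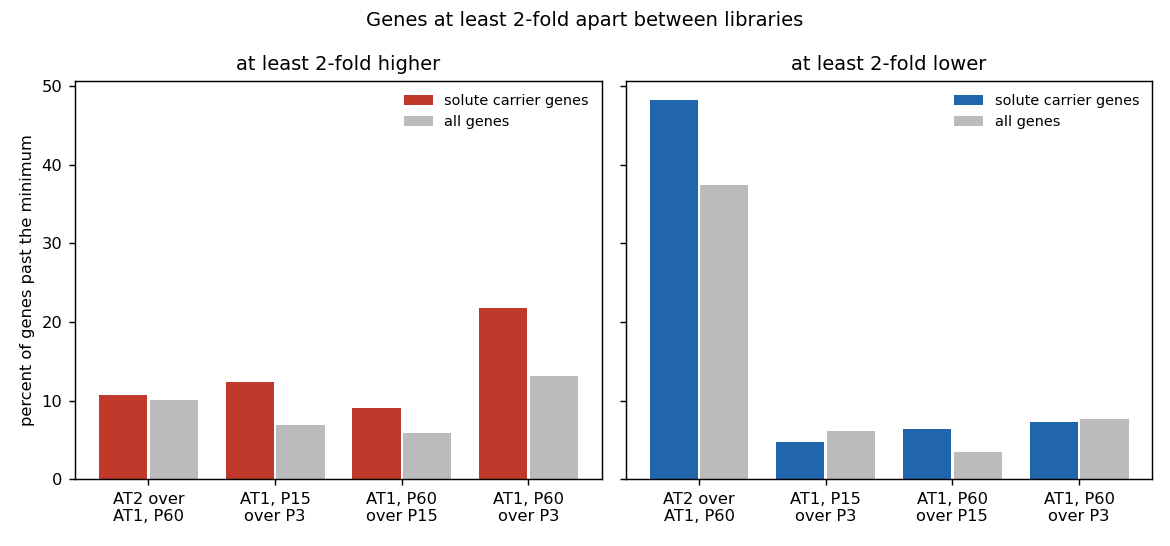
Percent of genes past the minimum that were at least 2-fold higher or lower in each of the 4 comparisons, for solute carrier genes and for all genes. The share of solute carriers was 48.2% against 37.4% of all genes for genes lower in AT2, and 21.8% against 13.1% for genes higher in AT1 at P60 than at P3.

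**Figure D3:**
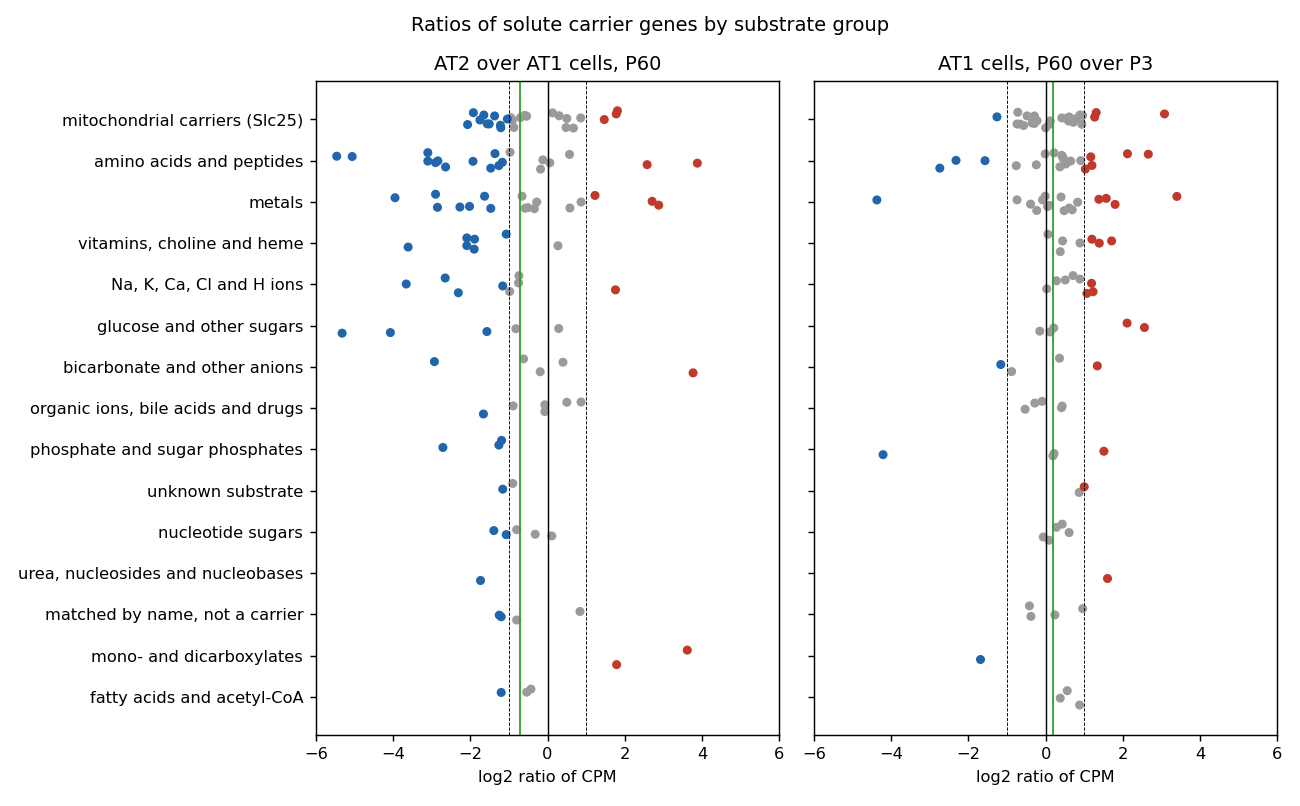
Log2 ratio of CPM for each gene that passed the minimum, by substrate group, for AT2 over AT1 at P60 (left) and for AT1 at P60 over P3 (right). Dashed lines mark 2-fold and the green line the median of all genes (−0.72 and 0.19); vitamin, choline and heme carriers lie mostly left of the line in AT2, with 6 of 7 at least 2-fold lower.

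Metal carriers included the gene with the highest level of the 172 genes in any library, and genes on both sides of the AT2 to AT1 comparison. Of 24, 17 passed in AT2 against AT1, with 3 higher (17.6%) and 7 lower (41.2%), against 10.1% of all genes higher and 37.4% lower. From P3 to P60 in AT1, 17 passed, with 4 higher (23.5%) and 1 lower (5.88%), against 13.1% and 7.69% of all genes. Slc39a8 (mm10, chromosome 3, 135825279 to 135888572, plus strand) was at 548, 1120 and 568 CPM in AT1 and 206 CPM in AT2. It was highest at P15, 2.04-fold higher (2 to 2.09) than at P3, and its P3 and P60 levels were close. The range after a fold is its exact 95% interval, which covers counting error only. In AT2 it was 2.76-fold lower (2.62 to 2.92) than in AT1 at P60. Under the trimmed mean these log2 ratios were 0.98 and −0.82, both short of 2-fold, and 0.85 from P3 to P15 with ribosomal protein, mitochondrial and haemoglobin genes and Malat1 left out of the total. Slc39a4, a zinc importer (chromosome 15, 76612383 to 76617384, minus strand), was at 27.9, 106 and 294 CPM in AT1 and 39.4 CPM in AT2. The AT1 levels were higher at each later age, and their intervals do not overlap. The level at P60 was 10.5-fold higher (9.63 to 11.6) than at P3, and AT2 was 7.47-fold lower (6.71 to 8.34) than AT1 at P60. Cells with a UMI of Slc39a4 made up 18%, 36.7%, 69.9% and 17.1% of the classes, or 5.4%, 19.1%, 44% and 7.65% after each cell was thinned to 2000 UMIs, the same order as the levels from P3 to P60.

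Slc39a13, a zinc carrier of intracellular membranes, was at 32, 93.3 and 95.3 CPM in AT1 and 13.3 CPM in AT2. It was 2.91-fold higher (2.66 to 3.19) at P15 than at P3 and 7.19-fold lower (5.96 to 8.72) in AT2 than in AT1 at P60. Slc41a2, a magnesium carrier, was at 7.35, 20.1 and 25.7 CPM in AT1 and 1.66 CPM in AT2, 15.5-fold lower (9.39 to 27.2) in AT2. Slc39a7, a zinc carrier of the endoplasmic reticulum, was at 84.7, 103, 118 and 78.8 CPM, under 2-fold apart throughout. Slc39a2, another zinc importer, was at 44.2, 2.68 and 2.14 CPM in AT1 and is listed at 0 in AT2. It stood apart at P3, and was 20.6-fold lower (12.2 to 37.9) at P60. Its log2 ratio, which rests on 14 UMIs at P60, went from −4.37 to −5.14 without the 5 cells with most UMIs in each library. Its annotated exons share sequence with Mettl17 on the same strand, so its level is uncertain. Higher in AT2 was Slc31a1, the high-affinity copper importer (chromosome 4, 62360727 to 62391769, plus strand), at 27.2, 30 and 20.8 CPM in AT1 and 153 CPM in AT2. Every AT1 level lay below that of AT2, which was 7.35-fold higher (6.16 to 8.82) than AT1 at P60. A UMI of Slc31a1 was seen in 51.6% of AT2 cells and 10.2% of AT1 cells at P60, or 25.5% and 3.25% after thinning. Slc30a7, which loads zinc into the Golgi, was at 11, 13.2, 10.4 and 24.4 CPM, 2.35-fold higher (1.79 to 3.11) in AT2. The third gene higher in AT2, the magnesium carrier Slc41a1, named for completeness after its value was seen, was at 5.63, 3.76, 2.9 and 19 CPM, 6.55-fold higher (4.08 to 11.1).

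The promoters of 4 metal carriers that differ between the cell types are shown with matches to TGCNCNC, where N is any base. This is a loose form of the metal response element, which is known from zinc-responsive genes such as the metallothioneins. A match to it need not fit the element's stricter core. For each gene the 250 bases before a RefSeq start (build GRCm38.p6) are printed 5′ to 3′ on the gene's strand. Capitals mark matches to the loose pattern on either strand. They lie at chr3:135825029-135825278 for Slc39a8 (plus strand), chr2:91070316-91070565 for Slc39a13 (minus strand), chr10:83337818-83338067 for Slc41a2 (minus strand) and chr4:62360451-62360700 for Slc31a1 (plus strand).
Slc39a8: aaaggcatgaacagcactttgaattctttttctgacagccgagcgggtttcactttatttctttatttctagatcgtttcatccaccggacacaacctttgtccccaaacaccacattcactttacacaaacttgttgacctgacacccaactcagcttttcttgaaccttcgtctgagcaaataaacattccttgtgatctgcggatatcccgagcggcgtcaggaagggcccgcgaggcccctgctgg
Slc39a13: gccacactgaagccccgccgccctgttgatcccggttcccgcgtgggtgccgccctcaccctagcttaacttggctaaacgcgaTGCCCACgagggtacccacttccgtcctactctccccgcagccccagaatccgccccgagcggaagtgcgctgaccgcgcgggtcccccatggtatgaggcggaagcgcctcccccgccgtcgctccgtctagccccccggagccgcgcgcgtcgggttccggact
Slc41a2: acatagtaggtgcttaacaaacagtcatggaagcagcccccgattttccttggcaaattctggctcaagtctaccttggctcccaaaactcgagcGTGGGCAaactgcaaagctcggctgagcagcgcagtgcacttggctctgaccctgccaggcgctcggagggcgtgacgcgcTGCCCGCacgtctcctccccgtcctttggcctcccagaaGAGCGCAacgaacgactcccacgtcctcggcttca
Slc31a1: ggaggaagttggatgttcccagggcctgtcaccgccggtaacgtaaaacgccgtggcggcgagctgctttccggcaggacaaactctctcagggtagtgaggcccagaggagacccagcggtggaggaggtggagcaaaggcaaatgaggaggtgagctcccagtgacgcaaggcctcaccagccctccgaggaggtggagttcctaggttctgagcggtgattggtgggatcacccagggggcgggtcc
The loose pattern was found 1 time in the window of Slc39a13, 3 times in that of Slc41a2 and 0 times in those of Slc39a8 and Slc31a1. It was also found 0 times in the windows of Slc30a7 and Slc39a2, which are not printed. No window was listed for Slc39a4. For Slc39a8, 2 windows were listed, and the window nearest its annotated gene start was taken. Of all 32851 promoter windows that RefSeq gives, 44.4% hold the loose pattern, as do 50.8% of the 181 windows of the 133 solute carriers found there. The shares of all and of solute carrier windows were 12.6% and 13.8% for the TEAD motif GGAATG, 9.56% and 6.08% for the C/EBP motif TTGCNNAA, 3.45% and 2.76% for the ATF4 element TGATGNAA and 33.8% and 32% for CCAAT. All were searched on both strands, and the loose metal response element pattern was chosen for display after matches in other promoters had been seen. A match is a run of letters and not a bound site.

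Of the 30 carriers of amino acids and peptides, 19 passed in AT2 against AT1, with 2 higher (10.5%) and 12 lower (63.2%), against 10.1% of all genes higher and 37.4% lower. The median log2 ratio was −1.36 over the genes that passed and −1.31 over all of the group with UMIs, beside −0.72 and −0.76 for all genes. Slc7a7, the light chain of an exchanger of cationic for neutral amino acids (chromosome 14, 54369442 to 54417780, minus strand), was at 70.8, 65.2 and 59.9 CPM in AT1 and 1.36 CPM in AT2. The AT1 levels were close to each other, while AT2, with 14 UMIs, was 43.9-fold lower (25.8 to 81). Its heavy chain Slc3a2 was at 142, 177 and 223 CPM in AT1 and 80.6 CPM in AT2. It was 2.77-fold lower (2.54 to 3.02) in AT2, and −0.82 on the log2 scale under the trimmed mean. Slc1a1, a carrier of glutamate, aspartate and cysteine (chromosome 19, 28835049 to 28913960, plus strand), was at 39.7, 51.8 and 74.6 CPM in AT1 and 2.24 CPM in AT2, 33.3-fold lower (21.9 to 53) in AT2.

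Slc6a14, which takes up neutral and cationic amino acids with sodium and chloride (chromosome X, 21714896 to 21742355, plus strand), was at 146, 419 and 298 CPM in AT1 and 34.9 CPM in AT2. It was highest at P15, 2.88-fold higher (2.76 to 3.01) than at P3, and 8.55-fold lower (7.63 to 9.59) in AT2 than in AT1 at P60. The creatine carrier Slc6a8 had the same order of levels, at 32.6, 86.7, 73.5 and 8.58 CPM, and was 8.57-fold lower (6.81 to 10.9) in AT2. Slc43a2, a facilitative carrier of large neutral amino acids (chromosome 11, 75531694 to 75577575, plus strand), was at 27, 187 and 171 CPM in AT1 and 87.2 CPM in AT2. Its AT1 levels split between P3 and the later ages, 6.92-fold higher (6.34 to 7.57) at P15 than at P3, and AT2 was under 2-fold from AT1 at P60. Slc38a9, the lysosomal carrier that senses arginine, was at 10.1, 13.3, 23.2 and 3.12 CPM, 7.44-fold lower (5.06 to 11.3) in AT2. Slc7a4 was at 12.6, 29.3, 54.7 and 24.3 CPM, 4.34-fold higher (3.71 to 5.09) in AT1 at P60 than at P3.

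From P3 to P60 in AT1, 5 of 19 amino acid and peptide carriers were higher and 3 lower, against 13.1% and 7.69% of all genes. The lower ones were Slc1a5, Slc38a2 and Slc15a2. Slc1a5, which exchanges glutamine and other small neutral amino acids (chromosome 7, 16781340 to 16798274, plus strand), was at 373, 162 and 74.6 CPM in AT1 and 66 CPM in AT2. Its AT1 levels were lower at each later age with no overlap of intervals, 5-fold lower (4.56 to 5.49) at P60 than at P3, and AT2 was close to AT1 at P60. The sodium-coupled Slc38a2 was at 169, 145 and 56.7 CPM in AT1 and 59.2 CPM in AT2. Its difference lay between P15 and P60, 2.55-fold lower (2.28 to 2.86) at P60. Slc15a2, which takes up short peptides with protons (chromosome 16, 36750177 to 36784962, minus strand), was at 83.7, 25.5 and 12.5 CPM in AT1 and 75.2 CPM in AT2. It was 6.68-fold lower (5.35 to 8.44) at P60 than at P3 in AT1, and 6-fold higher (4.77 to 7.63) in AT2 than in AT1 at P60. The AT2 level at P60 was near that of AT1 at P3. The glycine carrier Slc6a9 was the other gene of this group higher in AT2, at 4.71, 2.75 and 1.68 CPM in AT1 and 24.8 CPM in AT2, 14.7-fold higher (8.1 to 29.9). Only 11 UMIs of Slc6a9 were counted in AT1 at P60, 54.5% of them in 5 cells, too few to show how it is spread over cells. Without the 5 cells with most UMIs in each library the log2 ratio went from 3.88 to 4.95, a move that rests on these few UMIs. The taurine carrier Slc6a6 was at 78.9, 113, 108 and 99.6 CPM, under 2-fold apart in all 4 comparisons.

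**Figure D4:**
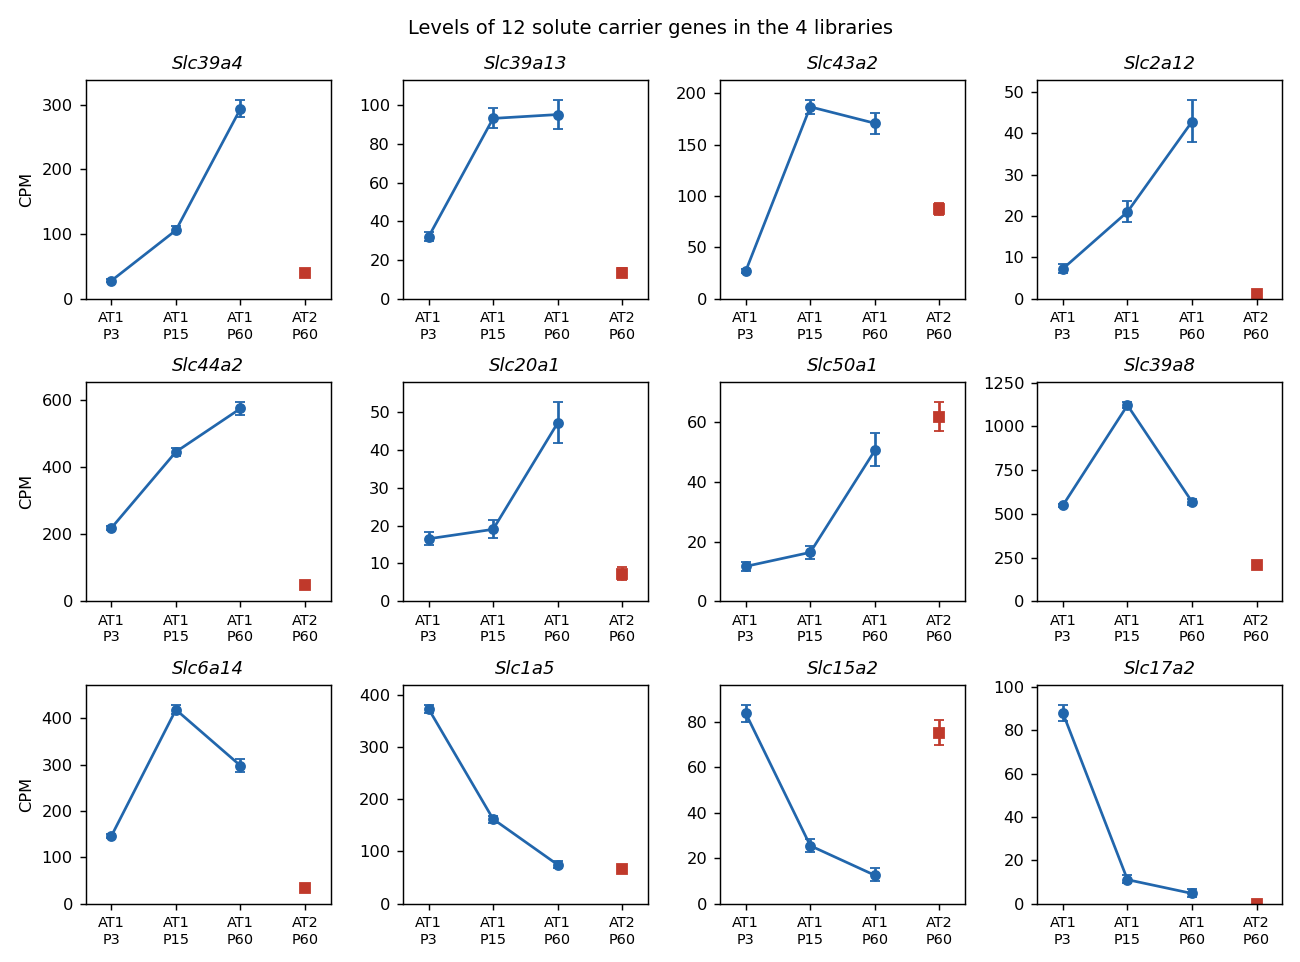
Level of 12 solute carrier genes, in CPM, in the AT1 libraries of each age and the AT2 library, drawn with exact 95% Poisson intervals for counting error. Slc39a4 (27.9, 106 and 294 CPM in AT1) and Slc1a5 (373, 162 and 74.6 CPM) have opposite orders with age, and Slc39a8 is highest at P15 (1120 CPM).

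Carriers of glucose and other sugars were at low levels. The 8 genes summed to 73.7 CPM in AT1 at P3, 151 CPM at P60 and 81.2 CPM in AT2. Of the 5 that passed, 3 were lower and 0 higher in AT2, against 10.1% of all genes higher and 37.4% lower, and 2 were higher and 0 lower in AT1 at P60 than at P3, against 13.1% and 7.69% of all genes. Slc2a12, a facilitative hexose carrier (chromosome 10, 22645011 to 22704285, plus strand), was at 7.26, 21 and 42.8 CPM in AT1 and 1.07 CPM in AT2. It was 5.89-fold higher (4.84 to 7.18) in AT1 at P60 than at P3 and 39.9-fold lower (22 to 80.8) in AT2, where 11 UMIs were counted. Slc50a1, a sugar exporter of the SWEET family, was at 11.7, 16.4 and 50.6 CPM in AT1 and 61.8 CPM in AT2, 4.32-fold higher (3.66 to 5.09) in AT1 at P60 than at P3. Its AT2 level was close to that of AT1 of the same age, and the highest of the sugar carriers there. Slc2a8, a carrier of intracellular membranes, was at 17.6, 23.5, 15.9 and 5.36 CPM, and Slc45a3 at 17, 20.3, 19.7 and 1.17 CPM, 16.8-fold lower (9.32 to 33.5) in AT2 with 12 UMIs there. Without the 5 cells with most UMIs the AT2 to AT1 log2 ratios of Slc2a12 and Slc45a3 went from −5.32 and −4.07 to −6.11 and −4.95, and without clusters led by a marker of another class to −6.38 and −2.94. The widely used glucose carrier Slc2a1, named after its values were seen, was at 9.95, 9.41, 10.8 and 6.14 CPM.

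Of the 6 phosphate and sugar phosphate carriers, 3 passed in AT2 against AT1 and all 3 were lower, against 10.1% of all genes higher and 37.4% lower. The matching gene left out by the rule is also a phosphate carrier and is not among the 6. The counts therefore do not cover all phosphate carriers of AT2. The phosphate importer Slc20a1 was at 16.5, 19 and 47.1 CPM in AT1 and 7.21 CPM in AT2. It was 2.85-fold higher (2.44 to 3.32) at P60 than at P3 in AT1 and 6.52-fold lower (5.05 to 8.53) in AT2. Slc37a1 and Slc37a3, of the sugar phosphate family, were at 49.1, 56.6, 56.2 and 24.7 CPM and at 17.9, 16.3, 20.8 and 8.68 CPM, with log2 ratios of −0.55 and −0.62 under the trimmed mean. Slc17a2, of the sodium-phosphate cotransporter family (chromosome 13, 23806993 to 23825180, plus strand), was at 88, 11.1 and 4.74 CPM in AT1 and is listed at 0 in AT2. P3 stood apart from the later ages, with P15 7.89-fold lower (6.69 to 9.36) and P60 18.6-fold lower (13 to 27.4). After thinning, a UMI of it was seen in 15.9%, 2.29% and 0.557% of AT1 cells.

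Of the 8 carriers of bicarbonate and other anions, 5 passed in AT2 against AT1, with 1 higher (20%) and 1 lower (20%), against 10.1% of all genes higher and 37.4% lower. The higher one was Slc4a4, a sodium bicarbonate cotransporter (chromosome 5, 88886818 to 89239653, plus strand), at 7.97, 2.82 and 1.37 CPM in AT1 and 18.7 CPM in AT2, 13.6-fold higher (7.02 to 30.2). Only 9 UMIs of Slc4a4 were counted in AT1 at P60, 66.7% of them in 5 cells, too few to show how it is spread over cells. Without the 5 cells with most UMIs the log2 ratio went from 3.77 to 5.25, a move that rests on these few UMIs. The lower one, the anion exchanger Slc4a3, named after its value was seen, was at 7.04, 7.17, 17.9 and 2.34 CPM. Slc4a5, another sodium bicarbonate cotransporter, was at 44.3, 34, 19.9 and 13 CPM, 2.23-fold lower (1.86 to 2.7) in AT1 at P60 than at P3, or −0.98 on the log2 scale with equal weight for each cell. The chloride-bicarbonate exchanger Slc4a2 was at 34.6, 47.4, 44.5 and 38.9 CPM and the sulfate carrier Slc26a2 at 32.8, 21.4, 17.9 and 23.6 CPM, both under 2-fold apart throughout.

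Of the 10 carriers of sodium, potassium, calcium, chloride and protons, 8 passed in AT2 against AT1, with 1 higher (12.5%) and 4 lower (50%), against 10.1% of all genes higher and 37.4% lower. Cation-chloride cotransporters stood on both sides. Slc12a2, which loads cells with chloride, was at 69.8, 83.4 and 71.2 CPM in AT1 and 241 CPM in AT2. The AT1 levels were close to each other, and AT2 was 3.38-fold higher (3.06 to 3.74). Slc12a4, which moves potassium and chloride out of cells, was at 33.2, 63.1 and 75.9 CPM in AT1 and 15.3 CPM in AT2. It was 4.96-fold lower (4.14 to 5.97) in AT2, and lowest of the AT1 ages at P3. The sodium-proton exchanger Slc9a8 of the Golgi was at 14.6, 9.19, 20.8 and 12.5 CPM, and the potassium-dependent sodium-calcium exchanger Slc24a5 at 14.7, 10.4, 24 and 12.2 CPM.

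Of the 15 vitamin, choline and heme carriers, 7 passed in AT2 against AT1, with 0 higher (0%) and 6 lower (85.7%), against 10.1% of all genes higher and 37.4% lower. The median log2 ratio was −1.90 over the genes that passed and −0.84 over all of the group with UMIs, beside −0.72 and −0.76 for all genes. From P3 to P60 in AT1, 3 of 7 were higher and 0 lower, against 13.1% and 7.69% of all genes. Slc44a2 (chromosome 9, 21320698 to 21355028, plus strand) was at 218, 445 and 574 CPM in AT1 and 47 CPM in AT2. It was 2.63-fold higher (2.52 to 2.74) at P60 than at P3, and the highest of the 172 genes in AT1 at P60. In AT2 it was 12.2-fold lower (11.1 to 13.5). After thinning, a UMI was seen in 36%, 58.7%, 67% and 8.35% of cells. Its relative Slc44a3 was at 96.4, 93.3, 100 and 26.9 CPM, close between AT1 ages and 3.73-fold lower (3.24 to 4.31) in AT2. Slc48a1, which moves heme out of endosomes and lysosomes, was at 116, 163, 215 and 57.9 CPM, 3.71-fold lower (3.37 to 4.09) in AT2. The riboflavin carrier Slc52a3 was at 24.2, 44.5, 55.5 and 13.1 CPM, 4.25-fold lower (3.47 to 5.22) in AT2. The ascorbate carrier Slc23a2 was at 8.19, 10.6, 26.7 and 12.8 CPM, 3.27-fold higher (2.64 to 4.04) in AT1 at P60 than at P3. Summed over all cells its log2 ratio from P3 to P60 was 0.62 instead of 1.71, and the cells outside the class held 70.4 CPM at P3 and 23.3 CPM at P60.

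Of the 37 Slc25 genes, 25 passed in AT2 against AT1, with 3 higher (12%) and 10 lower (40%), against 10.1% of all genes higher and 37.4% lower, so the shares were near those of all genes. Among the 10 lower ones are Slc25a17, of peroxisomes, and Slc25a46, of the outer mitochondrial membrane, both named after their calls were seen. Between P3 and P15 in AT1, 0 of 22 were higher and 0 lower, against 6.92% and 6.09% of all genes, and from P3 to P60 3 of 25 were higher and 1 lower, against 13.1% and 7.69% of all genes. The ADP/ATP exchangers Slc25a4 and Slc25a5 had different orders. Slc25a4 was at 472, 583 and 404 CPM in AT1 and 129 CPM in AT2, 3.13-fold lower (2.93 to 3.35) in AT2, and at the 2-fold line under the trimmed mean. Slc25a5 was at 370, 485 and 221 CPM in AT1 and 351 CPM in AT2, under 2-fold apart. In AT1 at P60 the level of Slc25a4 exceeded that of Slc25a5, and in AT2 the order was the opposite. Slc25a5 was also 2.19-fold lower (2.07 to 2.32) in AT1 at P60 than at P15. The phosphate carrier Slc25a3 was at 461, 364, 280 and 345 CPM. Levels of these abundant genes are uncertain where reads fall on near-identical copies.

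The mitochondrial carriers higher in AT2 were Slc25a1, Slc25a39 and Slc25a23. Slc25a1, which exports the citrate used for fatty acid synthesis, was at 16, 19.3, 29.6 and 82.3 CPM, 2.78-fold higher (2.37 to 3.26). Slc25a39, which imports glutathione, was at 37.6, 29, 27 and 92.9 CPM, 3.44-fold higher (2.92 to 4.06). The exchangers of ATP-magnesium for phosphate split between the cell types. Slc25a23 was at 18.6, 14.4, 12.5 and 43.9 CPM, 3.5-fold higher (2.76 to 4.49) in AT2, whereas Slc25a25 was at 49.4, 45.9, 20.6 and 6.14 CPM, 3.36-fold lower (2.47 to 4.6) in AT2. Slc25a25 was also 2.4-fold lower (2 to 2.89) in AT1 at P60 than at P3. Slc25a51, the mitochondrial NAD importer, was at 126, 183, 191 and 82.9 CPM, 2.31-fold lower (2.11 to 2.52) in AT2 and −0.56 on the log2 scale under the trimmed mean.

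Of the 4 carriers of monocarboxylates and dicarboxylates, 2 passed in AT2 against AT1 and both were higher, against 10.1% of all genes higher and 37.4% lower. Slc16a1, which moves lactate, pyruvate and ketone bodies with protons (chromosome 3, 104638668 to 104658462, plus strand), was at 6.07, 1.95 and 2.9 CPM in AT1 and 35.7 CPM in AT2, 12.3-fold higher (7.76 to 20.7). A UMI was seen in 16.1% of AT2 cells and 1.5% of AT1 cells at P60, or 7.3% and 0.464% after thinning. Slc16a7, a pyruvate and lactate carrier of higher affinity, was at 1.76, 0.869, 2.9 and 10 CPM, 3.46-fold higher (2.11 to 5.98) in AT2. Slc16a12, a creatine carrier, was at 22.1, 8.4 and 6.87 CPM in AT1 and is listed at 0 in AT2, 3.22-fold lower (2.37 to 4.47) at P60 than at P3. The lactate exporter Slc16a3 was at 0.217 to 0.352 CPM in the AT1 classes and at 15 to 27 CPM in the cells outside them.

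In the remaining groups, the sulfated steroid carrier Slc10a6 was at 3.35, 21.4 and 9.93 CPM in AT1 and 18.1 CPM in AT2, 6.41-fold higher (4.96 to 8.35) at P15 than at P3. Within the P15 library it ranged from 3.61 to 30.4 CPM between clusters of AT1-like cells, of 475 and 898 cells. The lysosomal nucleoside carrier Slc29a3 was at 3.92, 4.42, 11.9 and 3.51 CPM, 2.7-fold higher (1.91 to 3.84) in AT1 at P60 than at P15. Slc43a3, a nucleobase carrier, was at 0.292 to 1.83 CPM in the 4 classes and at 61.5 to 165 CPM in the cells outside them. A UMI of it was seen in 1.12%, 0.339%, 1% and 0.146% of class cells and in 40.2%, 31.2%, 24.1% and 21.2% of the cells outside. Median depths were 2916 to 12810.5 UMIs in the cells outside, against 4877 to 7287 in the classes. The 5 nucleotide sugar carriers of the Golgi and the 3 carriers of fatty acids and acetyl-CoA gave 0 at least 2-fold apart from P3 to P60. Over all genes 13.1% were higher and 7.69% lower. In AT2, 2 of the 5 and 1 of the 3 were lower and 0 higher, against 37.4% and 10.1% of all genes. The lower ones were Slc35a4, Slc35a5 and Slc27a4, at 37.4, 36.8, 39.7 and 18.9 CPM, 15.2, 30, 23.2 and 8.87 CPM and 17.9, 27, 26.3 and 11.4 CPM. All 3 were under 2-fold under the trimmed mean. The scaffold gene Slc9a3r2, which is no carrier, was at 151, 315, 293 and 124 CPM.

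Genes that act beside these carriers were read from 5 lists, whose counts stand beside 10.1% higher and 37.4% lower over all genes in AT2. Of the 41 listed solute carriers whose symbol does not follow the pattern, 27 passed in AT2 against AT1, with 2 higher and 8 lower. From P3 to P60 in AT1, 5 of 25 were higher and 1 lower, against 13.1% and 7.69% of all genes. The organic anion carriers of the Slco family stood on both sides. Slco3a1 was at 212, 493, 613 and 16.2 CPM, 37.9-fold lower (32.4 to 44.5) in AT2, and Slco4c1 at 0.836, 1.09, 1.07 and 141 CPM, 132-fold higher (63.7 to 328) in AT2. Slco2a1, a prostaglandin carrier, was at 46.6, 22.4, 18.5 and 85.3 CPM, 4.61-fold higher (3.81 to 5.63). In AT2, among 19 ancillary subunits and sodium pump genes, 2 of 11 were higher and 3 lower. Atp1b1, the sodium pump beta subunit, was at 342, 885, 225 and 860 CPM, and Fxyd3, a pump regulator, at 170, 208, 80.7 and 2.05 CPM, 39.4-fold lower (25.5 to 64.2) in AT2. Emb, a partner of monocarboxylate carriers, was at 23.8, 82.3, 136 and 213 CPM, 5.72-fold higher (5.13 to 6.38) in AT1 at P60 than at P3.

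Among 20 genes of zinc, iron and copper handling, 7 of 14 were higher and 0 lower in AT2, and 1 of 10 was higher and 3 lower in AT1 at P60 than at P3, against 13.1% and 7.69% of all genes. The metallothionein gene Mt1, whose product binds zinc and copper, was at 88.8, 16.1, 5.96 and 236 CPM. It was lower in AT1 at each later age, 14.9-fold lower (10.9 to 21) at P60 than at P3, and 39.7-fold higher (28.9 to 55.9) in AT2 than in AT1 at P60. Its neighbour Mt2 had the same order, at 17.5, 2.32, 1.22 and 28.8 CPM. Trf, which encodes transferrin, was at 1.32, 1.23, 3.67 and 195 CPM and its receptor gene Tfrc at 2.64, 2.1, 5.5 and 113 CPM, 53.2-fold higher (35.6 to 83.2) and 20.5-fold higher (14.7 to 29.5) in AT2. Among 18 genes of amino acid response and sensing, 4 of 13 were higher and 5 lower in AT2. Gclc, of glutathione synthesis, was at 12.9, 9.48, 15.7 and 235 CPM, 14.9-fold higher (12.2 to 18.3), and the asparagine synthetase gene Asns at 15.5, 41.9, 44 and 5.75 CPM, 7.65-fold lower (5.76 to 10.3). The serine synthesis genes Phgdh and Psat1 were at 17.4, 3.48, 0.764 and 4.09 CPM and at 86.3, 21.4, 8.1 and 3.02 CPM, 22.8-fold lower (9.7 to 70.7) and 10.7-fold lower (8.12 to 14.3) in AT1 at P60 than at P3.

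Among 19 genes of glucose use and its regulators, 3 of 17 were higher and 7 lower in AT2. The hexokinase gene Hk2 was at 6.38, 2.1, 1.37 and 107 CPM, 77.6-fold higher (40.7 to 170), and the phosphofructokinase gene Pfkp at 19.1, 52.4, 63.6 and 3.12 CPM, 20.4-fold lower (14.2 to 30.2). The glycolytic genes Eno1 and Pgk1 were also at least 2-fold lower in AT2, but their reads may fall on near-identical copies and their levels are uncertain. Txnip and Arrdc4, arrestin-like genes that restrain glucose uptake, were at 474, 415, 183 and 65.2 CPM and at 22.7, 8.76, 4.74 and 1.95 CPM. They were 2.58-fold lower (2.43 to 2.74) and 4.79-fold lower (3.33 to 7.12) in AT1 at P60 than at P3.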

How the data were processed

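The deposited tables give, for every gene in every cell, the natural log of 1 plus the UMI count after the cell's total was set to 10000, a unit read from the values themselves. Cell Ranger 1.3.1, Seurat 2.0.0 and the builds mm10 and hg19 are named per the submitters' processing notes, which do not say what hg19 was for. Whole UMIs were recovered for 100% of values within a tolerance of 0.05, and all counts rest on them. The 4 libraries held 1337 to 3149 cells with a median of 4864 to 7477 UMIs.

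Cells with at least 3 markers of endothelial, lymphatic, fibroblast, mural, immune or platelet cells, 4 of mesothelial cells or 5 of club or ciliated cells were set aside. Markers seen in at least 50% of a library's cells were not counted. The rest were clustered per library with Scanpy 1.11.5 (2000 variable genes, solute carriers left out, 20 components, 15 neighbours, Leiden resolution 0.5). Clusters were kept by how many markers of the sorted type were detected in them and by the summed level of these markers against the library. These markers did not have to be among a cluster's leading genes. In the AT1 libraries of P3, P15 and P60, 61, 21 and 7 cells fell in AT2 clusters and were not kept. The cells outside a class are these and the cells set aside. The set-aside and naming thresholds were set after seeing the data, and a difference from the study may come from these rebuilt names. Clusters kept in a class although 1 of their leading 10 genes marks another class were 2 clusters at P15 (Pf4 or Sftpd) and 3 in AT2 (Hopx, Acta2 or Mki67). No doublet caller was run. Cells with at least 3 markers of the other alveolar type were left out as an alternative, 780, 686 and 229 AT1 cells and 167 AT2 cells.

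Ratios of CPM have exact conditional Poisson intervals at 95%, levels exact Poisson intervals and shares of cells exact Clopper-Pearson intervals, all for counting error only. Shares were also computed after thinning to 2000 UMIs, which left out 0, 210, 123 and 73 shallower cells of AT1 P3, P15, P60 and AT2. The ratio and its interval were tested on simulated counts. Solute carriers named are those of at least 20 CPM and 30 UMIs with the 12 largest ratios each way (AT2 over AT1) or 8 (ages), the 8 highest per library and up to 4 per substrate group, 79 in all, and up to 4 and 3 genes of each other list. Not all of the 79 are described, and some are not reported here. Promoters of 4 genes with extreme ratios were searched first for 5 motifs, and the metal carriers shown were chosen after those matches were seen. All 172 symbols matched GENCODE release M21 (mm10). The matched exons of 10 solute carriers share sequence with a gene on the same strand (Slc39a2 and Slc45a3 among them) and of 47 with one on the opposite strand, and whether the counting used strand is not stated in the labels. The solute carriers, groups and lists were chosen with earlier results of these data known.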

Additional observations from a re-analysis of the deposited data

How the results depend on the processing

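No paired analysis was possible because each group has 1 library. No counted ratio of a named solute carrier changed sign under any alternative. The counts moved by over 1.5 times under 5 of them. With a minimum of 50 CPM, 41 solute carriers passed in AT2 against AT1. Of these, 5 were higher (12.2%) and 24 lower (58.5%), against 13.5% and 39.6% of all genes. P15 against P3 gave 8 and 3 of 35 (22.9% and 8.57%, against 9.21% and 6.62%). P60 against P15 gave 2 and 3 of 37 (5.41% and 8.11%, against 3.91% and 4.38%). P60 against P3 gave 12 and 4 of 39 (30.8% and 10.3%, against 13.2% and 9.51%). With no CPM minimum, 22 of 146 solute carriers were higher in AT2 (15.1%, against 10.5% of all genes). In the AT1 comparisons, in the same order, 13 of 155, 11 of 142 and 17 of 146 were lower. These were 8.39%, 7.75% and 11.6%, against 9.96%, 4.55% and 8.86% of all genes. Asking that the near bound of the interval reach 2-fold left 5 higher and 2 lower for P60 against P15. That was 4.55% and 1.82%, against 3.07% and 2.33% of all genes. A total without ribosomal protein, mitochondrial and haemoglobin genes and Malat1 gave 8 lower for P15 against P3 (6.96%, against 8.72% of all genes). The trimmed mean gave 23 higher (20.5%) and 31 lower (27.7%) in AT2, against 17.1% and 17.7% of all genes. That scaling shifts the log2 ratios of P15 over P3, P60 over P15 and P60 over P3 by 0.05, 0.12 and 0.22. The minimum sets how many genes can be counted, and the cause of the other moves was not tested. All cells, equal weight per cell, other Leiden resolutions, leaving out the 5 highest cells or cells with markers of the other alveolar type, and, chosen after seeing the data, leaving out clusters led by a marker of another class kept every count within 1.5 times. Single log2 ratios moved more: of 273 for named solute carriers, 105 moved beyond their counting interval under the trimmed mean, 45 with the other total, 28 without those clusters and 22 with all cells. Those clusters hold 675, 898 and 74 of the 2060 AT2-like cells and 718 and 384 of the 2658 AT1-like cells at P15. Genes under 10 CPM in AT2, such as Slc7a7, rest on few UMIs, and 15 listed at 0 there allow no fold.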
